A study of Rattus norvegicus with 18 samples.

Results

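Submucosal fibroblasts from tongue squamous cell carcinoma (SCC) were set against submucosal fibroblasts from normal tongue. The members were chosen by their labels: 3 SCC fibroblast samples and 3 normal fibroblast samples, 6 of the 18 arrays of the series. The rats were male Sprague Dawley animals. The SCC fibroblasts came from rats that drank water with 0.002% 4-nitroquinoline oxide (4NQO), a carcinogen that damages DNA, and whose tongue lesions were collected between week 14 and week 22. The normal fibroblasts came from rats that drank distilled water. A further 3 samples of dysplasia fibroblasts, from rats given the same 4NQO water, shared the estimate of the spread but are not compared here for their own sake. The study states that each sample held tissue of 3 rats. Per its methods the fibroblasts were collected by a short attachment step from digested submucosa, so other cells that attach can be present. The study calls the adherent cells pure fibroblasts and reports that staining for E-cadherin, pan keratin and vimentin bore out their purity. Whether the 3 samples of each group were separate collections is not stated, and p-values therefore measure the spread between these arrays, which may be technical.

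Submucosal fibroblasts make collagen, proteoglycans and the other parts of the matrix under the oral epithelium, and they answer injury signals with cytokines. Interleukin-1 (IL-1) α and β bind a receptor made of IL1R1 and the accessory chain IL1RAP, and the signal runs through MYD88, IRAK kinases and NF-κB to genes for chemokines, proteases and prostaglandin enzymes. The pathway carries its own brakes: the antagonist IL1RN occupies the receptor and the decoy receptor IL1R2 binds IL-1 without signaling. CXC chemokines with a glutamate-leucine-arginine motif bind CXCR2 on neutrophils, and G-CSF, the product of Csf3, acts on the receptor CSF3R.

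Chemokine genes of this kind stood among the largest rises, and 4 neighbours on rat chromosome 14 are shown with their promoters because they moved by very different amounts. Cxcl6 and Ppbp rose by 4.28 and 4.00 on the log2 scale in SCC fibroblasts, Cxcl2 rose by 0.91, and Cxcl1 had a difference of -0.05. Cxcl2 and Cxcl1 already had strong signal in normal fibroblasts. The call of Cxcl2 was lost in most fits with an array left out, as described below. The sequences are RefSeq promoters of the rat build GRCr8, from 250 bases before to 50 bases after each gene's start, all 4 on the minus strand. Cxcl6 lies at chr14:17596368-17596667, Ppbp at chr14:17587250-17587549, Cxcl2 at chr14:17467206-17467505 and Cxcl1 at chr14:17479272-17479571. Capitals mark a match to a 10-letter NF-κB type motif, which reads GGGA, any base (N), TT, any base (N) and CC, searched on both strands, and a palindromic match was counted once.
Cxcl6: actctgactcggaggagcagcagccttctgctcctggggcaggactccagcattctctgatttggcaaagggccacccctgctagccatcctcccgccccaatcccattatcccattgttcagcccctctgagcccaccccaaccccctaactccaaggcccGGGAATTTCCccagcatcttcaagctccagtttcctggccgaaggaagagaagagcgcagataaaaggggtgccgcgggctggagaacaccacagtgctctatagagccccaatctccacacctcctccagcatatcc
Ppbp: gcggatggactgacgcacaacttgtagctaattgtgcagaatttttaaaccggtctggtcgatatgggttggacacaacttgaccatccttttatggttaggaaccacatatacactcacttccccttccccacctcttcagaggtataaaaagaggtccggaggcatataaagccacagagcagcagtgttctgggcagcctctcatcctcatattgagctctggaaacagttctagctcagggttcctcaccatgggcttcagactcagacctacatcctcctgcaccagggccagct
Cxcl2: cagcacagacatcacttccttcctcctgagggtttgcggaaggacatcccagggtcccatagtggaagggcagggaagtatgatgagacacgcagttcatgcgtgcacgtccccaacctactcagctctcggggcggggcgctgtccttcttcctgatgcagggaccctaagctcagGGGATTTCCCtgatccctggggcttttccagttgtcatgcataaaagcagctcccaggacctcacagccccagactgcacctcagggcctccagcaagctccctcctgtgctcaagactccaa
Cxcl1: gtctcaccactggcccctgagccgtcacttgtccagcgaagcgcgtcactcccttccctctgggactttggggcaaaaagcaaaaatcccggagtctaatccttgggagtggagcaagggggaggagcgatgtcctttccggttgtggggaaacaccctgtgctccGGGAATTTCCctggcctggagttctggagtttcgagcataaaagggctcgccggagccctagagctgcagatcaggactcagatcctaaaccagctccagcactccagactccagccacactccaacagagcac
The match began 88 bases before the start of Cxcl6, 73 bases before that of Cxcl2 and 84 bases before that of Cxcl1, and the window of Ppbp held none. Of 33469 promoters of this length, 371 held the motif (1.11%). Cxcl6 and Cxcl1 held the same 10 letters, GGGAATTTCC, and their changes differed most among the 3 genes with a match. Among the inflammatory lists described below, a match was present in 7 of 30 promoters of genes that rose, in 0 of 5 of genes that fell and in 6 of 52 of genes that were not called. The matches of Nfkbia, Tnip1, Bcl3, Nfkb2 and Tlr2, which rose, came from the NF-κB feedback and pattern recognition list. So did those of Nfkbiz, Tnfaip3 and Nfkb1, which were not called. That list was chosen for its tie to NF-κB, so the split depends on the choice of lists. Outside it the matches were those of Cxcl2 and Cxcl6, which rose, and of Cxcl1, Ccr3 and Il6, which were not called. Cxcl3 is named only, since its promoter was not in the table used.

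The fibroblast label was checked against marker genes, which were summarised for each sample as the mean log2 signal of a list. The 18 fibroblast markers averaged 11.12, 10.80 and 11.62 in SCC fibroblasts, against 12.10, 11.90 and 12.29 in normal fibroblasts. In SCC epithelia the same list lay between 6.73 and 10.45, and in normal epithelia between 5.91 and 7.30. The samples therefore carried fibroblast RNA, and all 3 SCC samples lay below all 3 normal samples. They also carried strong epithelial signal, although the study reports its fibroblasts as pure by staining. The 18 epithelial markers lay between 11.56 and 12.52 in SCC fibroblasts, against 10.39 to 12.03 in normal fibroblasts, where normal epithelia lay between 12.70 and 12.86. Basal keratin Krt14, for example, had 14.13, 14.12 and 13.98 in SCC fibroblasts and 13.70, 13.71 and 12.88 in normal fibroblasts (difference 0.64, limma adjusted p 0.0841). In bulk samples fewer cells of a type and less RNA per cell cannot be told apart.

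Leukocyte markers also moved. The 8 neutrophil markers averaged 9.09, 9.12 and 8.74 in SCC fibroblasts, against 6.98, 6.84 and 7.25 in normal fibroblasts, and the groups did not overlap. The 13 T and NK cell markers lay between 6.35 and 6.51 in SCC fibroblasts and between 5.82 and 6.05 in normal fibroblasts, and the 10 mast cell markers lay between 8.87 and 9.41 in SCC fibroblasts and between 6.41 and 8.02 in normal fibroblasts. The T and NK cell level was thus low in both groups, and normal epithelia lay between 6.21 and 6.35 for that list. The 16 macrophage and monocyte markers overlapped, at 9.80, 9.82 and 11.67 in SCC fibroblasts and 11.38, 11.03 and 8.82 in normal fibroblasts, with the third sample of each group apart from the others. Endothelial markers overlapped too, at 10.27 to 10.45 in SCC fibroblasts and 9.62 to 11.19 in normal fibroblasts. B and plasma cell markers were low throughout, at 5.31 to 5.81 in SCC fibroblasts and 5.23 to 5.37 in normal fibroblasts. The part of these cells in the results below was not tested.

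**Figure D1:**
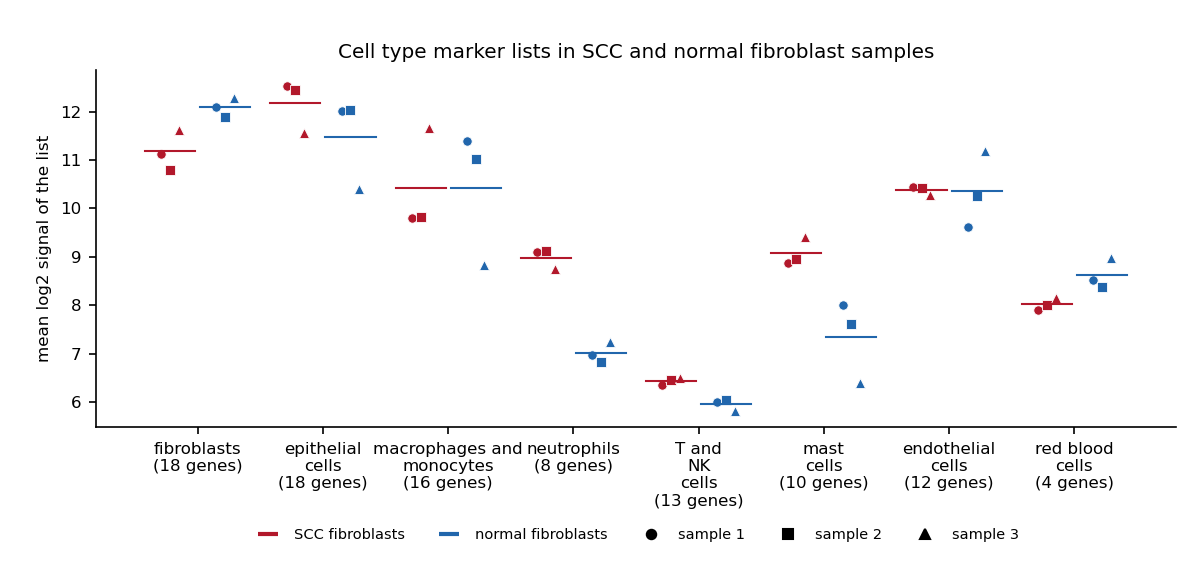
Mean log2 signal of 8 marker lists in SCC fibroblasts (red) and normal fibroblasts (blue), with 1 symbol per sample and a bar at the mean of 3 samples. The neutrophil list separates the groups, at 8.74 to 9.12 in SCC fibroblasts and 6.84 to 7.25 in normal fibroblasts, and the epithelial list is high in both groups.

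The arrays of a stage were not equally alike. Samples 1 and 2 differed by an SD of 0.194 in SCC fibroblasts and 0.224 in normal fibroblasts among the brighter probe sets (log2 signal above 7 on average), whereas differences that involve sample 3 had an SD of 0.573 and 0.631 in SCC fibroblasts and 0.732 and 0.695 in normal fibroblasts. RNA integrity moved with the groups: the log2 excess of the 3' over the 5' beta-actin signal was 1.20 ± 0.06 in SCC fibroblasts and 1.74 ± 0.26 in normal fibroblasts (SD, n = 3 each; exact permutation test, two-sided p 0.10, the smallest that 3 against 3 samples allow). Its part in the results was not tested.

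Between SCC and normal fibroblasts, limma called 4733 of 31042 probe sets at an adjusted p under 0.05 (15.2%), of which 2427 were higher (7.82%) and 2306 lower (7.43%) in SCC fibroblasts. With 1 probe set per gene, 1465 of 14217 genes rose (10.3%) and 847 fell (5.96%), and counts of list members below are read against these shares. A change of at least 2-fold, the larger of the fold limits in the study's methods, with limma's p below 0.05 before adjustment was met by 2284 probe sets (7.36%). In 38.4% of probe sets the 3 SCC samples did not overlap the 3 normal samples. The count of calls depended on single arrays: it was 936 without SCC sample 1, 995 without SCC sample 2, 1861 without normal sample 1, 1565 without normal sample 2 and 13130 (42.3%) with the third sample of every stage left out. When samples 1 and 2 of each stage were averaged to 1 value, 17 probe sets were called, all higher in SCC fibroblasts, and 4954 had an unadjusted p under 0.05. The 11 of these with a named gene were Ppbp, Mcpt10, Hp, Mxd1, Rbp2, Prss3bl1, Chi3l1, Mefv, Il1a, Sh2d5 and Pglyrp1, and 397 genes were called with each array left out in turn, 323 of them higher and 74 lower in SCC fibroblasts.

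Changes are relative to the typical probe set, and this reference matters for the falls. The median change over all probe sets was -0.05 with the values as deposited. With the arrays set to equal signal of 18 spike-in control probe sets it was 0.56, and 7217 probe sets were called higher and 157 lower in SCC fibroblasts. With 1 probe set per gene of that fit, 4203 of 14217 genes were higher (29.6%) and 54 lower (0.38%). These controls are added at hybridization, so they do not measure the RNA content of the cells. Which scaling lies nearer to that content was not tested.

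Saa3, an acute-phase serum amyloid A, had the largest rise among called genes whose groups did not overlap, with 12.62, 12.77 and 10.65 in SCC fibroblasts, against 4.89, 5.33 and 5.52 in normal fibroblasts, a rise of 6.76 ± 0.58 (log2 fold change ± SE, limma adjusted p 0.000537) and a fold of 109. Rbp2, a cellular retinol-binding protein, had 11.43, 11.55 and 10.97 in SCC fibroblasts and 6.10, 5.76 and 4.79 in normal fibroblasts, a rise of 5.76 ± 0.31 (adjusted p 7.83e-05). Ebi3, a subunit shared by IL-27 and IL-35, rose by 5.22 ± 0.64 (adjusted p 0.00272). Every SCC sample lay well above every normal sample for these 3 genes, and their calls held with each array left out. Nppb, which encodes B-type natriuretic peptide, rose by 5.02 ± 0.54 (adjusted p 0.00156), and Car2, a carbonic anhydrase, by 3.79 ± 0.46 (adjusted p 0.00246). Another probe set of Car2, by which it ranked among the largest rises, rose by 4.65 ± 0.34 (adjusted p 0.000256). Fgfbp1, which releases stored FGF from matrix, rose by 4.18 ± 0.53 (adjusted p 0.00318). Mxd1, a MAX partner that opposes MYC, had 11.78, 11.69 and 11.40 in SCC fibroblasts and 8.75, 8.49 and 8.55 in normal fibroblasts (3.02 ± 0.14, adjusted p 3.64e-05).

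Several of the leading rises were already present in dysplasia fibroblasts, a comparison that shares the normal samples. Fibroblasts averaged 5.25 for Saa3 at the normal stage, 10.24 at dysplasia and 12.01 at SCC. For Rbp2 the averages were 5.55 at the normal stage, 9.97 at dysplasia and 11.31 at SCC. Dysplasia against normal was called for both (adjusted p 0.0165 for Saa3 and 0.00193 for Rbp2), within a background of 53 calls among all probe sets (0.171%). For Ppbp they were 5.88 at the normal stage, 6.37 at dysplasia and 9.88 at SCC, so that most of its rise lay after dysplasia.

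Both IL-1 genes rose together with the genes for their brakes. Of 24 measured members of the IL-1 family and inflammasome list, 6 rose and 0 fell, and the list median was 0.47 against 0.02 over all genes. With single arrays left out, 6 to 8 members rose. Il1a, the gene of IL-1α, had 11.92, 11.86 and 12.50 in SCC fibroblasts, against 8.65, 8.34 and 7.25 in normal fibroblasts (4.01 ± 0.41, adjusted p 0.00121), and its second probe set rose by 5.71 ± 0.37 (adjusted p 0.000157). Il1b, the gene of IL-1β, had 13.59, 13.65 and 13.66 in SCC fibroblasts and 12.38, 12.20 and 11.22 in normal fibroblasts (1.70 ± 0.26, adjusted p 0.00696). The Il1b signal was thus already high in normal fibroblasts and the groups did not overlap. Il1rn, the receptor antagonist, had 11.74, 11.87 and 10.42 in SCC fibroblasts and 6.66, 6.59 and 5.82 in normal fibroblasts (4.98 ± 0.39, adjusted p 0.000352). Il1r2, the decoy receptor, had 12.77, 12.79 and 12.18 in SCC fibroblasts and 9.24, 9.09 and 9.24 in normal fibroblasts (3.39 ± 0.29, adjusted p 0.000537). Neutrophils and keratinocytes are known sources of both brakes.

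On the receptor side, the accessory chain rose and the signaling receptor was not called. Il1rap had 9.54, 9.66 and 9.62 in SCC fibroblasts, against 7.62, 7.38 and 7.51 in normal fibroblasts (2.10 ± 0.16, adjusted p 0.000352). Il1r1 had 10.57, 10.34 and 11.10 in SCC fibroblasts and 10.38, 10.30 and 11.19 in normal fibroblasts, so the groups overlapped (adjusted p 0.924). Irak2, a kinase below the receptor, rose by 1.64 ± 0.18 (adjusted p 0.00182). The calls of Il1a, Il1b, Il1rn, Il1r2, Il1rap and Irak2 held with each array left out.

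Of 19 measured CXC chemokines and receptors, 5 rose and 1 fell (median 0.23). The rises were 4 ligands of CXCR2 and Cxcr2 itself. Cxcl3 had 11.19, 11.40 and 12.05 in SCC fibroblasts, against 8.35, 8.45 and 8.37 in normal fibroblasts (3.16 ± 0.28, adjusted p 0.000566), and another of its probe sets rose by 4.64 ± 0.37 (adjusted p 0.000376). Cxcl6 had 10.18, 9.79 and 9.65 in SCC fibroblasts and 4.98, 4.70 and 7.10 in normal fibroblasts (4.28 ± 0.62, adjusted p 0.00556). Ppbp, a neutrophil-activating chemokine also stored in platelets, had 9.67, 9.98 and 9.99 in SCC fibroblasts and 5.86, 5.87 and 5.92 in normal fibroblasts (4.00 ± 0.17, adjusted p 2.58e-05). None of these 3 genes overlapped between the groups, and their calls held with each array left out. Cxcl2 and Cxcl1 had strong signal in both groups. Cxcl2 had 13.85, 13.88 and 13.78 in SCC fibroblasts and 13.36, 13.21 and 12.21 in normal fibroblasts (0.91 ± 0.27, adjusted p 0.0494), and the call was lost without normal sample 2, any SCC sample or any dysplasia sample (adjusted p up to 0.148). Cxcl1 had 13.57, 13.51 and 13.71 in SCC fibroblasts and 13.59, 13.53 and 13.81 in normal fibroblasts, so the groups overlapped (adjusted p 0.833). The receptor gene Cxcr2 had 8.78, 8.89 and 7.74 in SCC fibroblasts and 5.36, 5.23 and 5.50 in normal fibroblasts (3.11 ± 0.29, adjusted p 0.000849). The single fall, of the scavenging receptor Ackr3 (-0.74 ± 0.20, adjusted p 0.0409), was lost without normal samples 1, 2 or 3, SCC samples 1 or 2 or dysplasia samples 1 or 2, and after spike-in alignment (adjusted p 0.788).

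**Figure D2:**
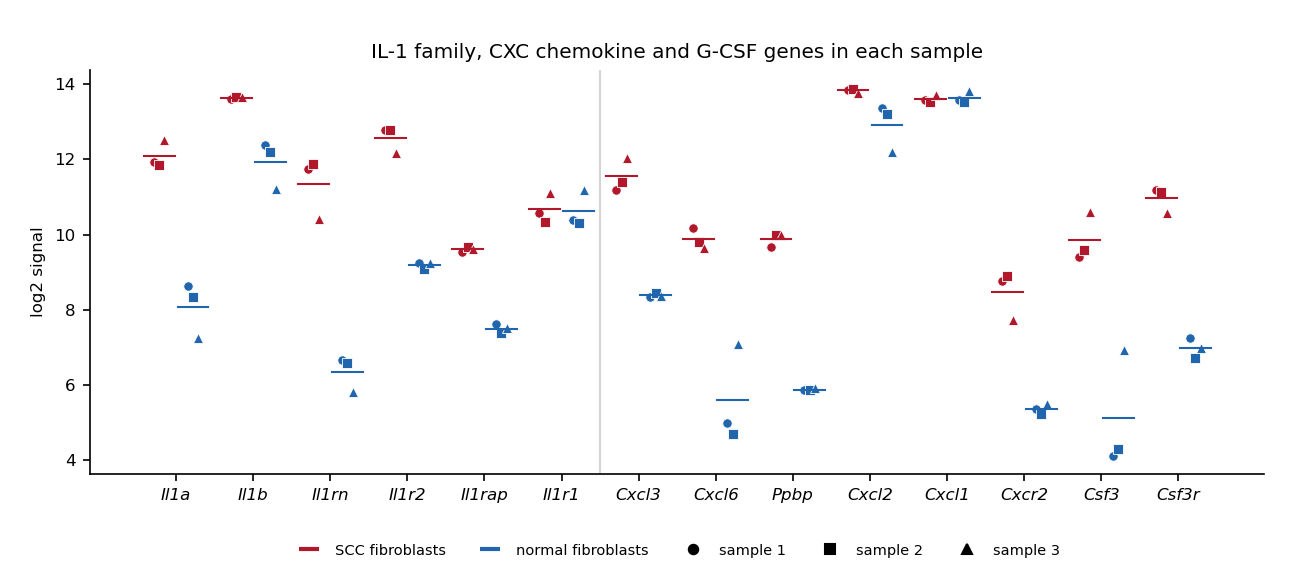
Log2 signal of IL-1 family genes (left of the line) and of CXC chemokine and G-CSF genes (right of it) in SCC fibroblasts (red) and normal fibroblasts (blue), with 1 symbol per sample and a bar at the mean. Il1r1 and Cxcl1 overlap between the groups, and Ppbp has 9.67 to 9.99 in SCC fibroblasts and 5.86 to 5.92 in normal fibroblasts.

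Genes of other cytokines and of colony stimulating factors rose as well. Of 20 measured cytokines and colony stimulating factors, 6 rose and 1 fell (median 0.41). Csf3 had 9.39, 9.58 and 10.59 in SCC fibroblasts, against 4.13, 4.30 and 6.94 in normal fibroblasts (4.73 ± 0.75, adjusted p 0.00733). Its receptor gene Csf3r, a neutrophil marker, had 11.19, 11.13 and 10.57 in SCC fibroblasts and 7.25, 6.73 and 6.98 in normal fibroblasts (3.98 ± 0.31, adjusted p 0.000352). Osm, a cytokine of activated myeloid cells, rose by 3.30 ± 0.34 (adjusted p 0.00121), Il24 by 3.61 (adjusted p 0.00501) and Il23a, which sustains IL-17 producing T cells, by 3.05 ± 0.37 (adjusted p 0.00246). Csf2, the gene of GM-CSF, rose by 3.22 ± 0.61 (adjusted p 0.0133) and just missed the threshold without normal sample 2 (adjusted p 0.0503). The sixth rise was Il10, which restrains inflammation (2.97 ± 0.77, adjusted p 0.035); it was lost without any one of the 6 SCC and normal arrays (adjusted p up to 0.0868). The fall, of Il15 (-0.74 ± 0.21, adjusted p 0.0494), was lost without any normal sample, SCC samples 1 or 2 or dysplasia samples 1 or 2.

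Among 24 measured CC chemokines and receptors, 5 rose and 2 fell (median 0.23), and 3 rose without normal sample 2, SCC sample 1 or SCC sample 2. Ccl3, a macrophage inflammatory protein, rose by 2.11 (adjusted p 0.00669), Ccl6 by 1.39 (adjusted p 0.00182) and the receptor gene Ccr1 by 3.24 (adjusted p 0.000943), with every SCC sample above every normal sample. The monocyte attractant Ccl2 had 12.87, 12.81 and 13.32 in SCC fibroblasts and 12.81, 12.75 and 13.46 in normal fibroblasts, so the groups overlapped. The falls were Ccl28, a mucosal chemokine (-0.60, adjusted p 0.0455), and Cx3cr1, the fractalkine receptor (-0.54, adjusted p 0.0311). Both calls were lost after spike-in alignment and without any normal sample or SCC samples 1 or 2, and that of Ccl28 also without dysplasia sample 2 or SCC sample 3. Without normal sample 3 the 1 fall of the list was Ccl24, which was not called with all arrays (-1.18, adjusted p 0.24).

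Genes of NF-κB feedback and pattern recognition rose in 8 of 17 members and fell in 1 (median 0.37), and 4 rose without normal sample 2, SCC sample 1 or SCC sample 2. Birc3, an inhibitor of apoptosis induced by NF-κB, had 11.20, 11.21 and 11.09 in SCC fibroblasts, against 9.72, 9.79 and 9.93 in normal fibroblasts (1.35 ± 0.12, adjusted p 0.000537). Nfkb2, the p100 precursor of the noncanonical arm, rose by 1.48 ± 0.14 (adjusted p 0.000915), Tnip1, which dampens the pathway, by 1.30 ± 0.21 (adjusted p 0.0085) and the lipopeptide receptor Tlr1 by 2.51 ± 0.18 (adjusted p 0.000227). These were the 4 calls that held with each array left out. The fall, of the myeloid receptor gene Trem2 (-0.90, adjusted p 0.0439), was lost in 6 of those fits, those without normal samples 1 or 2, dysplasia samples 1 or 2 or SCC samples 1 or 2, and after spike-in alignment (adjusted p 0.414).

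Among the pathway lists, that of antimicrobial and acute-phase genes had the largest share of rises. Of 17 measured members, 12 rose and 0 fell, the median was 2.53, and 11 to 13 rose with single arrays left out. Lcn2, which starves bacteria of iron, had 13.22, 13.19 and 11.90 in SCC fibroblasts, against 6.55, 6.67 and 9.48 in normal fibroblasts (5.21 ± 0.71, adjusted p 0.00421). Hp, the gene of haptoglobin, had 9.11, 9.32 and 9.13 in SCC fibroblasts and 6.78, 6.34 and 6.40 in normal fibroblasts (2.68 ± 0.15, adjusted p 7.83e-05). The complement gene C3 had 10.67, 10.47 and 10.81 in SCC fibroblasts and 8.18, 7.96 and 8.25 in normal fibroblasts (2.52 ± 0.17, adjusted p 0.000198). Pglyrp1, a peptidoglycan-binding protein of neutrophil granules, rose by 3.52 ± 0.21 (adjusted p 0.000122), Serpina3n, a protease inhibitor of the acute phase, by 3.49 ± 0.30 (adjusted p 0.000509) and Slpi, an elastase inhibitor of mucosa, by 2.53 ± 0.35 (adjusted p 0.00448). The calgranulin genes S100a8 and S100a9, carried by neutrophils and keratinocytes, rose by 2.68 (adjusted p 0.00335) and 1.63 (adjusted p 0.00196). S100a9 was high in both groups, at 13.76 to 13.84 in SCC fibroblasts and 11.89 to 12.57 in normal fibroblasts.

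Counted as markers, 6 of 8 neutrophil genes rose and 0 fell, namely S100a8, S100a9, Cxcr2, Csf3r, Mmp8 and Camp. Of 13 T and NK cell genes 4 rose: Cd3e had 7.07, 6.92 and 6.89 in SCC fibroblasts and 5.58, 5.62 and 5.59 in normal fibroblasts (1.36 ± 0.12, adjusted p 0.000537), Cd3g rose by 1.11, Cd2 by 1.66 and Lck by 0.61, the last of these lost without normal sample 2 or SCC samples 1 or 2. Of 10 mast cell genes 4 rose, and 2 without SCC sample 1 or SCC sample 2. Mcpt10, a mast cell protease of the rat, had 9.16, 9.55 and 9.49 in SCC fibroblasts and 5.25, 4.44 and 4.48 in normal fibroblasts (4.68 ± 0.22, adjusted p 3.64e-05), and Fcer1a, a chain of the high-affinity IgE receptor, rose by 3.06 ± 0.53 (adjusted p 0.01). No macrophage marker was called among 16, while with the third samples left out 1 was higher and 12 were lower in SCC fibroblasts, where 25.3% of all genes were higher and 21.8% lower.

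Growth factor genes moved in both directions, and 3 ligands of the EGF receptor were among the rises. Of 30 measured EGF, FGF, PDGF, VEGF and HGF genes, 4 rose and 4 fell (median -0.07), where 10.3% of all genes rose and 5.96% fell. The share of rises was thus near that of all genes, and the 3 ligands are given as single genes. Tgfa, the gene of transforming growth factor α, had 8.88, 8.69 and 8.91 in SCC fibroblasts, against 6.59, 6.62 and 6.11 in normal fibroblasts (2.39 ± 0.16, adjusted p 0.000168). Ereg, the gene of epiregulin, had 9.98, 9.92 and 10.05 in SCC fibroblasts and 6.96, 6.22 and 5.48 in normal fibroblasts (3.76 ± 0.32, adjusted p 0.000509). Areg, the gene of amphiregulin, had 10.69, 10.69 and 11.36 in SCC fibroblasts and 8.25, 8.34 and 7.27 in normal fibroblasts (2.96 ± 0.31, adjusted p 0.00139). Groups were apart for all 3 ligands and their calls held with each array left out. The receptor gene Egfr had a change of -0.68 ± 0.13 (adjusted p 0.013), lost without SCC sample 2 (adjusted p 0.0599) and after spike-in alignment (adjusted p 0.868). Falls in this list numbered 1 without normal samples 1 or 2, SCC sample 1 or dysplasia sample 2, 2 without normal sample 3 or dysplasia sample 1, 0 without SCC sample 2 and 7 without SCC sample 3.

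Prostanoid and leukotriene genes were called in 7 of 22 members, 5 higher and 2 lower (median 0.15), but 1 rose without normal sample 2, SCC sample 1 or SCC sample 2, and 3 without normal sample 1. Ptger2, a prostaglandin E2 receptor, was the rise that held with each array left out, with 7.66, 7.96 and 7.39 in SCC fibroblasts, against 5.81, 5.71 and 5.14 in normal fibroblasts (2.11 ± 0.21, adjusted p 0.0011). Ptgs2, the gene of COX2, had 12.60, 12.41 and 12.71 in SCC fibroblasts and 11.03, 10.91 and 11.52 in normal fibroblasts (1.42 ± 0.32, adjusted p 0.0222), and was lost without normal samples 1 or 2 or SCC samples 1 or 2 (adjusted p up to 0.0824). Ptgis, which makes prostacyclin, fell by 1.87 ± 0.42 (adjusted p 0.022) and was lost without the same 4 arrays (adjusted p up to 0.0879).

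Among 16 measured matrix metalloproteinases, 3 rose and 2 fell (median 0.07), and 1 rose without normal samples 1 or 2 or SCC sample 1. The falls were Mmp16, a membrane-type metalloproteinase (-2.24 ± 0.48, adjusted p 0.0194), and Mmp17, which is anchored by a lipid (-0.78 ± 0.19, adjusted p 0.0277). Neither was called without normal sample 2 or SCC samples 1 or 2, Mmp16 was lost without normal sample 1 and Mmp17 after spike-in alignment (adjusted p 0.716). Mmp8, a neutrophil collagenase, had 6.67, 6.90 and 7.45 in SCC fibroblasts and 5.29, 5.15 and 5.23 in normal fibroblasts (1.79, adjusted p 0.00156), and held with each array left out. Mmp13, a collagenase, had 10.15, 9.96 and 12.52 in SCC fibroblasts and 7.17, 5.93 and 6.75 in normal fibroblasts (4.26 ± 1.19, adjusted p 0.0435), and was lost without any one of the 6 SCC and normal arrays or dysplasia sample 1 (adjusted p up to 0.118). Mmp10, a stromelysin, had 8.39, 8.35 and 11.37 in SCC fibroblasts and 5.10, 5.27 and 5.50 in normal fibroblasts (4.08 ± 0.89, adjusted p 0.0209), and was lost without normal samples 1 or 2 or SCC sample 1 (adjusted p up to 0.0629). The gelatinase genes were not called: Mmp9 had 10.51 to 10.70 in SCC fibroblasts and 7.11 to 9.26 in normal fibroblasts (adjusted p 0.129), and Mmp2 had 12.16, 11.71 and 12.97 in SCC fibroblasts and 13.20, 13.04 and 13.27 in normal fibroblasts (adjusted p 0.107). Among protease inhibitors and plasminogen activation genes 2 of 27 rose and 2 fell. The rises were Plaur, the urokinase receptor (2.16 ± 0.42, adjusted p 0.0146), lost without SCC sample 2 (adjusted p 0.058), and the metalloprotease Adam8 (2.40 ± 0.43, adjusted p 0.0116), lost without SCC sample 1 or 2 (adjusted p up to 0.0525). The rises of this list numbered 5 without normal sample 3 and 4 without dysplasia sample 3, and its falls numbered 0 without SCC sample 1, 1 without normal samples 1 or 2, dysplasia samples 1 or 2 or SCC sample 2, 5 without dysplasia sample 3 and 6 without SCC sample 3.

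**Figure D3:**
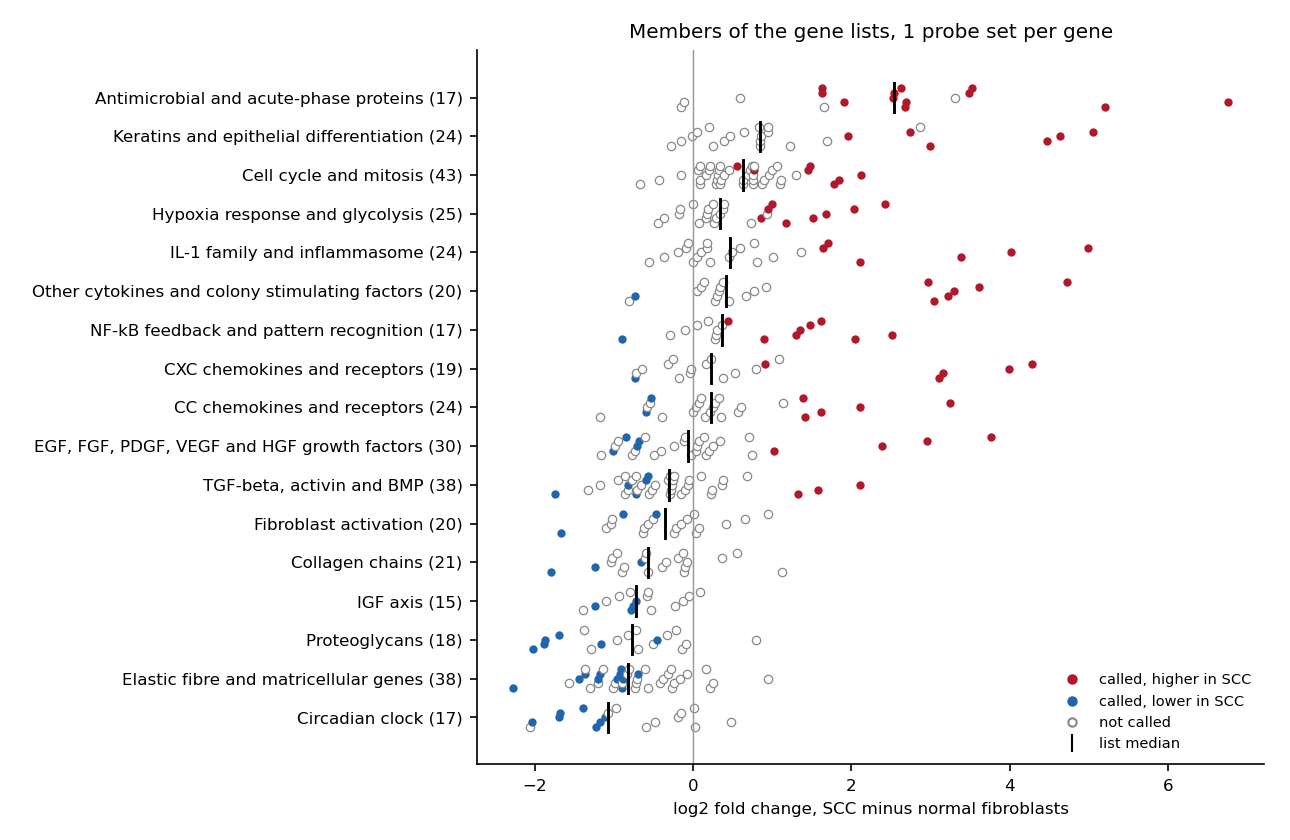
Log2 fold change of the members of 17 gene lists between SCC and normal fibroblasts, with the number of measured genes in parentheses. Filled points were called higher (red) or lower (blue) in SCC fibroblasts, open points were not called, and bars mark list medians, such as 2.53 for the antimicrobial list and -0.83 for the elastic fibre list; after spike-in alignment the elastic fibre median was -0.22.

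Matrix genes lay below the typical gene in SCC fibroblasts, and their calls depended on the alignment and on single arrays. Collagen chains had a median of -0.57 with 0 of 21 higher and 3 lower, proteoglycans a median of -0.77 with 0 of 18 higher and 6 lower, and elastic fibre and matricellular genes a median of -0.83 with 0 of 38 higher and 11 lower. After spike-in alignment the medians were 0.04, -0.17 and -0.22, and 1, 3 and 1 members were lower, with 1 member of each list higher. Lower members numbered 1, 1 and 1 without SCC sample 1, the same without SCC sample 2, and 5, 11 and 19 without SCC sample 3. Without normal sample 1 they numbered 1, 2 and 1, and without dysplasia sample 3 they numbered 6, 11 and 17. Proteoglycans had 2 and elastic fibre genes 2 lower members without normal sample 2, 3 and 4 without normal sample 3, and 3 and 7 without dysplasia sample 2, and elastic fibre genes had 7 without dysplasia sample 1. The fibroblast marker level, 10.80 to 11.62 in SCC fibroblasts and 11.90 to 12.29 in normal fibroblasts, moved the same way.

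The falls that held with each array left out and after spike-in alignment were fewer. Pi16, a marker of adventitial fibroblasts, had 9.72, 9.38 and 9.42 in SCC fibroblasts, against 11.74, 11.41 and 11.63 in normal fibroblasts (-2.09 ± 0.25, adjusted p 0.00246, and 0.00779 after spike-in alignment). Ccn3, a matricellular protein, had 9.50, 9.08 and 9.23 in SCC fibroblasts and 11.69, 11.50 and 11.45 in normal fibroblasts (-2.28 ± 0.31, adjusted p 0.00429 and 0.00541). Gpc3, a cell surface heparan sulfate proteoglycan, had 9.79, 9.51 and 10.69 in SCC fibroblasts and 11.93, 11.73 and 11.96 in normal fibroblasts (-1.87 ± 0.32, adjusted p 0.0101 and 0.0204). No SCC sample reached a normal sample for these 3 genes. Among the largest falls of all genes, the same held for Mamdc2, a proteoglycan (-2.96 ± 0.44, adjusted p 0.00581 and 0.000663), Adamtsl4, a protein of microfibrils (-2.15 ± 0.36, adjusted p 0.00881 and 0.00828), the cadherin Cdh22 (-2.97 ± 0.49, adjusted p 0.00882 and 0.00406) and Fam111a, a nuclear protease (-3.41 ± 0.62, adjusted p 0.0119 and 0.00413).

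Other matrix genes had large differences with weaker calls. Aspn, the gene of asporin, had 10.39, 10.09 and 11.28 in SCC fibroblasts, against 12.42, 12.38 and 12.63 in normal fibroblasts (-1.89 ± 0.36, adjusted p 0.0139), lost without SCC sample 1 or 2 (adjusted p up to 0.0631). Another probe set of Aspn had a change of -2.41 ± 0.47 (adjusted p 0.0151). Ogn, the gene of osteoglycin, had 9.63, 9.13 and 10.64 in SCC fibroblasts and 11.59, 11.40 and 12.48 in normal fibroblasts (-2.02 ± 0.47, adjusted p 0.0257), lost without SCC samples 1 or 2 or any normal sample (adjusted p up to 0.0998). Col14a1, a collagen at fibril surfaces, had 11.07, 10.64 and 11.78 in SCC fibroblasts and 12.96, 12.76 and 13.17 in normal fibroblasts (-1.80 ± 0.36, adjusted p 0.0166), lost without normal sample 1 or SCC sample 1 or 2 (adjusted p up to 0.0701). Col6a1, a microfibrillar collagen, and Fn1, the gene of fibronectin, were just under the threshold (-1.24 ± 0.36 and -0.89 ± 0.26, adjusted p 0.0491 and 0.0492), and both were lost after spike-in alignment (adjusted p 0.241 and 0.531) and without normal samples 1, 2 or 3, SCC samples 1 or 2 or dysplasia samples 1 or 2 (adjusted p up to 0.172). The main fibrillar collagen gene Col1a1 had 12.56, 12.23 and 12.59 in SCC fibroblasts and 12.89, 12.72 and 13.48 in normal fibroblasts and was not called (adjusted p 0.177).

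**Figure D4:**
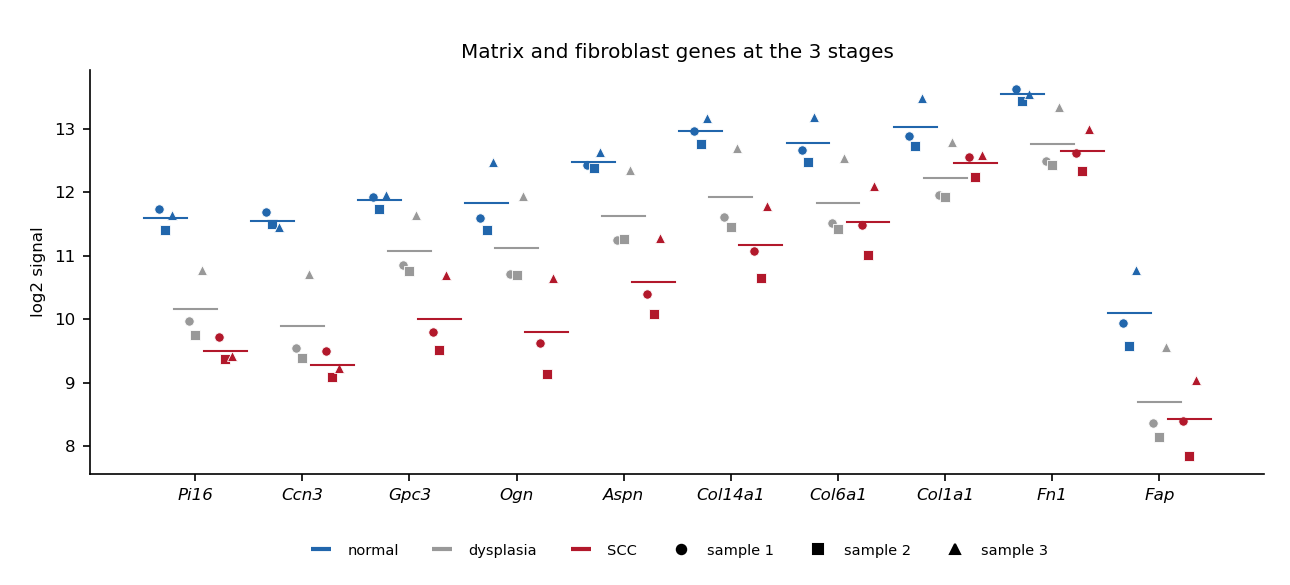
Log2 signal of 10 matrix and fibroblast genes in normal (blue), dysplasia (grey) and SCC (red) fibroblasts, with 1 symbol per sample and a bar at the mean. Pi16 and Ccn3 lie between 9.08 and 9.72 in SCC fibroblasts and between 11.41 and 11.74 in normal fibroblasts, and Col1a1 was not called; after spike-in alignment the falls of Col6a1, Fn1 and Fap were not called either.

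Of 20 genes commonly used for activated fibroblasts 0 rose and 3 fell (median -0.36), while 3 rose and 0 fell after spike-in alignment (median 0.25). After that alignment 29.6% of all genes were higher and the median over all probe sets was 0.56, both above this list. Fap, a surface protease that marks activated fibroblasts, had 8.39, 7.85 and 9.04 in SCC fibroblasts and 9.94, 9.58 and 10.77 in normal fibroblasts (-1.67 ± 0.45, adjusted p 0.0398), a call lost after spike-in alignment (adjusted p 0.101) and without any normal sample, SCC samples 1 or 2 or dysplasia sample 1 (adjusted p up to 0.145). The list's falls numbered 0 without normal samples 2 or 3, dysplasia sample 1 or SCC samples 1 or 2, 1 without normal sample 1 or dysplasia sample 2, and 6 without SCC sample 3.

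Of 38 TGF-β, activin and BMP genes 3 rose and 5 fell (median -0.31, and 0.30 after spike-in alignment, where 5 rose and 0 fell). After that alignment 29.6% of all genes were higher, a larger share than in this list. Gdf15, a stress cytokine of the TGF-β family, had 10.02, 10.38 and 10.68 in SCC fibroblasts and 9.05, 8.87 and 8.41 in normal fibroblasts (1.58 ± 0.28, adjusted p 0.0106), and held with each array left out, while 1 member of the list rose without SCC sample 1. Inhbb, a subunit of activin B, rose by 2.10 ± 0.38 (adjusted p 0.0117) and Fst, the activin antagonist, by 1.33 ± 0.28 (adjusted p 0.0194); the call of Inhbb was lost without SCC sample 1 (adjusted p 0.053) and that of Fst without normal sample 2 or SCC samples 1 or 2 (adjusted p up to 0.0645). None of Tgfb1, Tgfb2 and Tgfb3 was called, with differences of 0.23, -0.82 and -0.70. The falls numbered 0 without normal samples 2 or 3 or SCC samples 1 or 2, 1 without normal sample 1 or dysplasia sample 2, 2 without dysplasia sample 1, 11 without dysplasia sample 3 and 13 without SCC sample 3. Collagen processing genes fell in 2 of 18 members (median -0.61, and 0.00 after spike-in alignment, where none was called). WNT genes fell in 2 of 28 (median -0.31, and 0.30 with 5 rises after spike-in alignment, a smaller share than the 29.6% of all genes). Neither list fell in any member without SCC samples 1 or 2 or normal sample 2, and they had 7 and 4 falls without SCC sample 3. Of 15 IGF axis genes 0 rose and 4 fell (median -0.73), none fell after spike-in alignment (median -0.12), and none fell without normal samples 1 or 2 or SCC samples 1 or 2, 2 without dysplasia sample 2 and 7 without SCC sample 3. Igfbp6, an IGF2-binding protein, fell by 1.25 ± 0.25 (adjusted p 0.0167) among these.

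Proliferation genes had a positive median change in SCC fibroblasts, with few calls at this spread. Of 43 cell cycle and mitosis genes 7 rose and 0 fell (median 0.63). The count was 2 without normal samples 1 or 2 or SCC samples 1 or 2, 13 without SCC sample 3, 18 without dysplasia sample 3 and 33, with 1 fall, when the third sample of every stage was left out. Aurka, a mitotic kinase, had 8.45, 8.47 and 8.34 in SCC fibroblasts, against 6.98, 6.47 and 6.27 in normal fibroblasts (1.85, adjusted p 0.00254), and Mad2l1, a spindle checkpoint gene, had 9.23, 9.23 and 8.48 in SCC fibroblasts and 7.23, 7.29 and 7.08 in normal fibroblasts (1.78 ± 0.30, adjusted p 0.00914). Both held with each array left out.

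Cell cycle inhibitors were among the calls too. Of 19 inhibitor and p53 target genes 5 rose and 1 fell, and the rises numbered 3 without normal samples 1 or 2 and 2 without SCC samples 1 or 2. The fall, of the CDK inhibitor gene Cdkn1c (-1.53 ± 0.44, adjusted p 0.0492), was lost without any normal sample, SCC samples 1 or 2 or dysplasia samples 1 or 2. Cdkn2a, which encodes p16INK4a and p19ARF, had 10.35, 9.16 and 8.20 in SCC fibroblasts, against 4.97, 4.84 and 4.41 in normal fibroblasts (4.49 ± 0.57, adjusted p 0.00299). The SCC samples were spread widely, and the lowest of them was still far above the normal samples. The death receptor gene Fas rose by 1.35 ± 0.22 (adjusted p 0.00882), and Gadd45a, a DNA damage response gene, rose by 1.77 ± 0.32 (adjusted p 0.0114), a call lost without SCC sample 1 or 2 (adjusted p up to 0.0521).

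Interferon genes split by member. Of 23 measured, 6 rose and 1 fell (median -0.06), and 2 rose without SCC sample 1 or 2. The fall, of Ifi44, was lost without normal samples 1 or 2 or SCC samples 1 or 2, and falls numbered 4 without normal sample 3 and 2 without dysplasia sample 3. The rises that held with each array left out were Ifit3 and Isg15, both induced by type I interferon. Ifit3 had 11.86, 11.95 and 10.50 in SCC fibroblasts, against 7.33, 7.34 and 6.85 in normal fibroblasts (4.26 ± 0.37, adjusted p 0.000526), and Isg15 had 11.56, 11.73 and 10.75 in SCC fibroblasts and 8.86, 9.15 and 7.71 in normal fibroblasts (2.77, adjusted p 0.00556). Of 16 antigen presentation genes 3 rose and 0 fell, led by Tapbp, a loading factor for MHC class I (1.15 ± 0.14, adjusted p 0.00246); 1 rose without normal sample 1 or SCC sample 2.

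Hypoxia and glycolysis genes rose in 8 of 25 members and fell in 0 (median 0.34), but 1 rose without SCC sample 1 or 2. That gene was Hilpda, a lipid droplet protein induced by hypoxia, with 11.70, 11.79 and 11.35 in SCC fibroblasts, against 9.74, 9.59 and 9.40 in normal fibroblasts (2.04, adjusted p 0.000318). Slc16a3, a lactate exporter, had 10.57, 10.60 and 10.52 in SCC fibroblasts and 8.92, 8.69 and 6.82 in normal fibroblasts (2.42 ± 0.46, adjusted p 0.0134; up to 0.0566 without SCC sample 1 or 2).

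NRF2 and xenobiotic genes rose in 7 of 30 members and fell in 2 (median 0.42), with 3 rises without normal samples 1 or 2 and 2 without SCC samples 1 or 2, and 0 falls without any of these 4 arrays. Srxn1, which repairs oxidised peroxiredoxin, had 12.16, 12.05 and 11.38 in SCC fibroblasts, against 10.12, 10.19 and 9.46 in normal fibroblasts (1.94 ± 0.26, adjusted p 0.00377). Mgst2, a microsomal glutathione transferase, rose by 1.39 ± 0.22 (adjusted p 0.00777). In the unfolded protein response list 2 of 19 rose and 0 fell (median -0.12), a share near the 10.3% of all genes that rose. Those that rose were Asns, the gene of asparagine synthetase, by 2.60 (adjusted p 0.00395) and Ddit3, the gene of CHOP, by 1.03 ± 0.18 (adjusted p 0.0098). Oxidative phosphorylation genes were called in 1 of 27, immediate early genes in 1 of 22, namely the AP-1 gene Fosl2 (1.11 ± 0.18, adjusted p 0.00842), and adhesion genes of endothelium and leukocytes in 0 of 14. Without dysplasia sample 3 or SCC sample 3, 4 and 3 oxidative phosphorylation genes were called. Without SCC sample 3, 6 immediate early genes were also called lower, and 10 were with the third sample of every stage left out, where 21.8% of all genes were lower.

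Of 17 clock genes 0 rose and 7 fell (median -1.08, and -0.47 after spike-in alignment, where 1 rose and 1 fell). The repressor genes Per2 and Bhlhe41 had changes of -1.70 ± 0.42 (adjusted p 0.0303) and -2.03 ± 0.50 (adjusted p 0.03). Without normal samples 1 or 2 or SCC samples 1 or 2 no clock gene was called lower, and without normal sample 3 there were 3. The sources used here do not give the hour at which tissues were taken, so time of day and group cannot be told apart.

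Keratin and epithelial differentiation genes were called in 6 of 24 members, all higher in SCC fibroblasts (median 0.85), and in 2 without SCC sample 1 or 2. Those 2 were Krt1, a keratin of suprabasal layers, with 11.81, 11.41 and 11.38 in SCC fibroblasts, against 7.02, 6.88 and 5.53 in normal fibroblasts (5.06 ± 0.64, adjusted p 0.00299), and Sprr1b, a precursor of the cornified envelope, with 13.14, 13.04 and 11.83 in SCC fibroblasts and 9.03, 8.80 and 6.79 in normal fibroblasts (4.46 ± 0.61, adjusted p 0.00409). Krt17, a keratin of stressed and wounded epithelium, had 13.46, 13.47 and 13.26 in SCC fibroblasts and 11.49, 11.50 and 8.99 in normal fibroblasts (2.73 ± 0.58, adjusted p 0.019; up to 0.0751 without SCC sample 1 or 2). Of the 18 epithelial markers 1 was called higher (median 0.66), 0 without SCC sample 1 or 2 and 2 without SCC sample 3. With the third samples left out 8 of these markers and 15 keratin and differentiation genes were higher, and after spike-in alignment 14 markers (median 1.27) and 14 keratin and differentiation genes were, where 25.3% and 29.6% of all genes were higher. The part of epithelial RNA in these rises was not tested.

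Epithelia of the same stages were used to ask whether the change in fibroblast samples differed from that in epithelium. Per the study's methods the epithelial layer was peeled off and frozen, while fibroblasts were digested further and plated in serum before collection. Cell type and handling therefore cannot be told apart in this comparison. The difference of the changes was called for 5126 of 31042 probe sets (16.5%), 2916 of them higher (9.39%) and 2210 lower (7.12%) in fibroblasts, where 29.9% of probe sets were called in epithelia alone, and the count was 3259 without SCC fibroblast sample 1 and 3101 without SCC fibroblast sample 2. The split depended on the scaling: after spike-in alignment 6800 were higher and 559 lower in fibroblasts, and without SCC epithelia sample 3 it was 2457 and 2505. Il1a had 9.15, 8.38 and 8.63 in SCC epithelia and 9.01, 8.42 and 8.89 in normal epithelia, so its change in fibroblasts was larger by 4.07 ± 0.50 (adjusted p 0.000152). Il1rn, Il1r2 and Il1rap were larger in fibroblasts by 4.84 (adjusted p 2.88e-05), 4.16 (adjusted p 0.000178) and 1.77 (adjusted p 9.97e-05). Il1b went the other way: it had 10.41, 10.61 and 9.25 in SCC epithelia and 5.38, 5.73 and 5.35 in normal epithelia, so its rise was smaller in fibroblasts (difference -2.91 ± 0.75, adjusted p 0.0164). The SCC fibroblast samples, at 13.59 to 13.66, nevertheless had the higher Il1b signal.

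Chemokine and cytokine genes divided in the same way. The rise was larger in fibroblasts for Cxcl3 (2.83, adjusted p 0.000337), Ppbp (2.26, adjusted p 0.0022), Cxcr2 (3.04, adjusted p 0.000434), Csf3 (4.53, adjusted p 0.00265), Tgfa (2.74, adjusted p 4.16e-06) and Slpi (2.59, adjusted p 0.000554). The change was lower in fibroblasts than in epithelia for Cxcl2 (-4.29, adjusted p 0.00266), Cxcl1 (-3.50, adjusted p 7.56e-05), Ccl2 (-5.82, adjusted p 6.19e-06), S100a9 (-5.14, adjusted p 8.66e-06) and Ptgs2 (-2.20, adjusted p 0.0168, and 0.0587 after spike-in alignment), of which Cxcl1 and Ccl2 were not called in fibroblasts themselves. These 5 genes had a higher signal in normal fibroblasts than in normal epithelia: Ccl2, for example, had 12.81, 12.75 and 13.46 in normal fibroblasts and 4.59, 4.99 and 5.12 in normal epithelia. For Areg and Cdkn2a the difference was 0.25 (adjusted p 0.698) and -1.48 (adjusted p 0.129).

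A few genes moved in opposite directions, with both changes and their difference called. Over all genes there were 157, of which 91 rose and 66 fell in SCC fibroblasts. Mxd1 had 10.16, 10.06 and 9.40 in SCC epithelia and 11.52, 11.54 and 11.52 in normal epithelia, a difference of 4.68 ± 0.28 between the cell types (adjusted p 4.43e-07). Irak2, Tnip1 and Fosl2 also rose in fibroblasts and fell in epithelia (differences 2.23, 1.71 and 1.70). Fn1 and Aspn fell in fibroblasts and rose in epithelia, where Fn1 had 9.83, 12.24 and 7.79 in SCC epithelia and 6.44, 7.87 and 6.36 in normal epithelia (difference -3.95 ± 1.05, adjusted p 0.0191; -5.68 ± 1.21 and adjusted p 0.00591 for Aspn). The fibroblast marker list had 6.73 to 10.45 in SCC epithelia and 5.91 to 7.30 in normal epithelia, so fibroblast RNA moved with the epithelial change, and its part in it was not tested. Fam111a, Per2 and Igfbp6 had the same pattern as Fn1 (differences -5.91, -2.72 and -2.26, adjusted p 0.00155, 0.00551 and 0.00346). Of the collagen chains, 6 of 21 had a called difference, all lower in fibroblasts, against 18.6% of all genes with a difference in either direction.

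**Figure D5:**
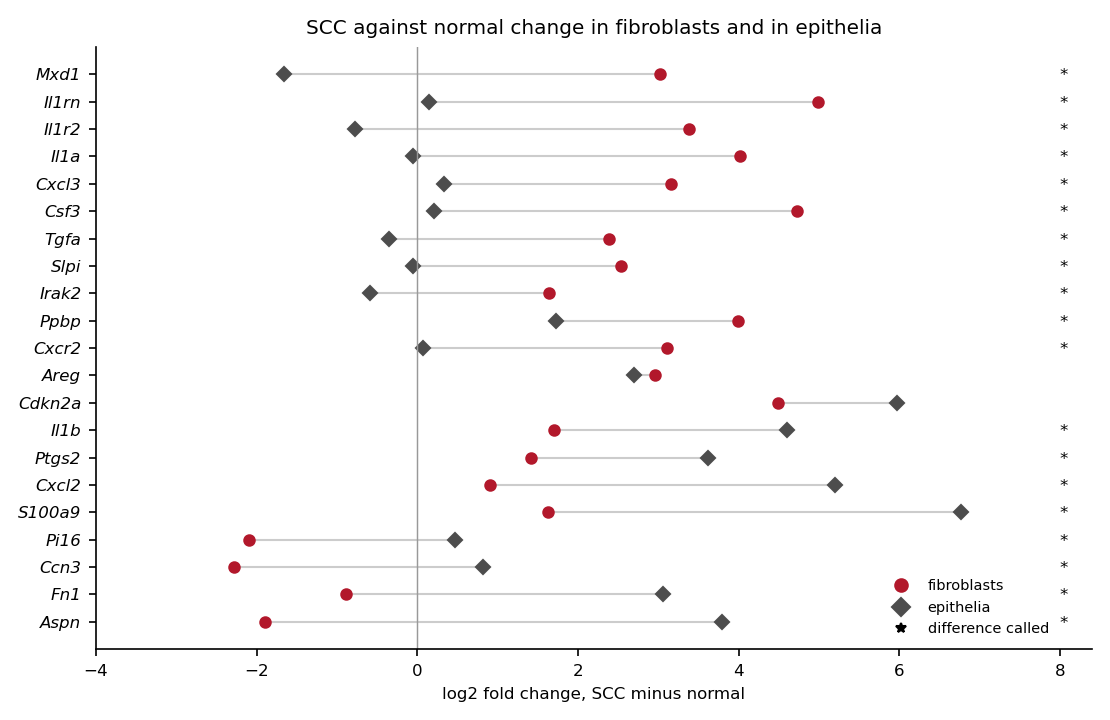
Log2 fold change between SCC and normal samples in fibroblasts (red circles) and in epithelia (grey diamonds) for 21 genes, with a star where the difference of the changes was called. Il1rn changes by 4.98 in fibroblasts and 0.14 in epithelia, S100a9 by 1.63 and 6.77, and Areg and Cdkn2a carry no star; the fall of Fn1 in fibroblasts was not called after spike-in alignment.

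The study named 24 genes as network nodes or for RT-PCR, a part of them on these samples and others in its further experiments, so their counts are not independent evidence of direction. Of these, 10 rose and 1 fell in SCC fibroblasts (median 0.81). The rises numbered 6 without normal sample 1 and 5 without normal sample 2 or SCC samples 1 or 2. The fall, of the clock output gene Dbp (-1.69, adjusted p 0.0442), was lost without normal samples 1, 2 or 3, SCC samples 1 or 2 or dysplasia samples 1 or 2. Among those not described above, Glrx, a glutaredoxin, rose by 1.36 ± 0.22 (adjusted p 0.00767) and held with each array left out. Vsnl1, a neuronal calcium sensor, had 11.07, 11.05 and 9.66 in SCC fibroblasts and 8.55, 9.03 and 7.59 in normal fibroblasts (2.20 ± 0.56, adjusted p 0.0334), lost without any normal sample or SCC samples 1 or 2 (adjusted p up to 0.123). Ccl20 rose by 1.61 ± 0.47 (adjusted p 0.0491), a call that was lost in 8 of the 9 fits with an array left out, all but that without dysplasia sample 3 (adjusted p up to 0.145). The heme oxygenase gene Hmox1 missed the threshold (0.71 ± 0.21, adjusted p 0.0502), and 12 other genes of the list were not called.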

How the data were processed

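Each of the 18 samples was hybridised to 1 Affymetrix rat genome expression array. The deposited values are linear signal intensities per probe set, which the authors made with RMA in Affymetrix Expression Console per the processing notes, versions not given in the sources used here. Log2 was taken with no other normalization, and the 57 control probe sets were left out, leaving 31042. limma 3.58.1 (R 4.3.3) was fitted to the 9 fibroblast arrays with 1 mean per stage, and SCC was tested against normal. P-values were adjusted over all probe sets by Benjamini-Hochberg, and "called" means an adjusted p under 0.05. "Rose" and "fell" refer to calls. The difference from epithelia came from 1 limma fit of all 18 arrays.

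A gene was represented by its probe set of highest mean log2 signal over the fibroblast arrays (14217 genes), by the symbols of the platform annotation. Named were up to 20 genes of the largest rises and falls whose groups did not overlap, up to 6 called and 4 uncalled members of each list, every gene the study had singled out, and the IL-1, CXC, metalloproteinase and marker lists, and the text takes its genes from these. The genes with a called difference from epithelia, and the single falls of lists, were named after their values were seen. Members and lists were chosen with earlier results of these data known. The fit was tested on simulated data with known shifts and noise that was independent between arrays. The likeness of samples 1 and 2 was not simulated, so this test cannot show how the fit handles it. The precision is limited by 3 arrays per group. Alternatives covered filtering, normalization, an offset, the arrays fitted, pairing, the variance model, array weights, the methods' t-test and arrays left out; averaging samples 1 and 2 was chosen after seeing the data.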

Additional observations from a re-analysis of the deposited data

Results flagged for a closer look

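The change between SCC and normal samples differed between fibroblasts and epithelia for 5126 probe sets by limma's test of the difference. Fibroblasts and epithelia also differed in handling, as described above. Among the genes named above, 11 had opposite called changes in the 2 cell types: the difference on the log2 scale, fibroblasts minus epithelia, was 4.68 for Mxd1, 2.23 for Irak2, 1.71 for Tnip1 and 1.70 for Fosl2, and -5.91 for Fam111a, -5.68 for Aspn, -3.95 for Fn1, -2.80 for Ifi44, -2.72 for Per2, -2.64 for Il15 and -2.26 for Igfbp6. The calls of Aspn, Fn1, Ifi44, Per2, Il15 and Igfbp6 in fibroblasts were each lost without SCC sample 1 or SCC sample 2, and fibroblast markers in SCC epithelia varied from 6.73 to 10.45 between samples. Groups of 3 samples were not examined for single outlying values.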

How the results depend on the processing

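Of the 4733 calls between SCC and normal fibroblasts, the number changed to 7374 with spike-in alignment (7217 higher, 157 lower), 7566 with all 18 arrays in the fit, 17983 with array weights, 884 by the methods' t-test after Benjamini-Hochberg, 2486 with 1 probe set per gene, 13130 with the third samples left out and 17 with samples 1 and 2 averaged. With single arrays left out it ranged from 936 to 6796. The 2284 probe sets past the study's fold became 5856 with spike-in alignment, 1172 with 1 probe set per gene, 3550 without the third samples and 6315 at a fold of 1.5, with a range of 1707 to 3455 over single arrays left out (3455 without SCC sample 3). The 5126 differences from epithelia became 2919 with 1 probe set per gene and ranged from 3101 to 6790; their split of 2916 higher and 2210 lower in fibroblasts became 6800 and 559 with spike-in alignment, and 2457 and 2505 without SCC epithelia sample 3. The methods' t-test with the study's fold gave 1850. The beta-actin 3' to 5' difference ranged from -0.65 to -0.40.

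The replicate numbers were not taken to pair the samples. Same-numbered SCC and normal samples had deviations correlated at 0.0658, 0.229 and 0.16 over all probe sets, and at 0.117, 0.356 and 0.229 over the 14758 brighter ones, where SCC sample 1 correlated better with normal sample 2 (0.231). The labels give the numbers no shared source. A replicate block gave 7405 calls, 2380 probe sets past the study's fold and 6363 differences, and kept 4651 of the 4733 calls. With it 11 collagen chains and 22 elastic fibre genes fell, against 3 and 11 without it, 2 fibroblast activation genes rose and 7 fell, against 0 and 3, and Col1a1 was called lower (adjusted p 0.0458). Of 107 called genes named in the text, 106 stayed called with the block, 93 with spike-in alignment, 38 by the methods' t-test and 6 with samples 1 and 2 averaged, and 74 to 106 with single arrays left out. In none of the 22 settings was a called probe set called the opposite way.

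Some changes turned sign. With spike-in alignment the values were 0.56 for Cxcl1 and 0.60 for Ccl2, which were near 0 as deposited, and 0.0090 for Ccl28, 0.068 for Cx3cr1 and 0.037 for Col1a1, against -0.60, -0.54 and -0.57 as deposited, where Ccl28 and Cx3cr1 were called. Array weights gave 0.0098 for Cxcl1 and 0.079 for Ccl2, quantile normalization 0.039 for Ccl2 and the fit without sample 3 of every stage 0.059 for Ccl2. With single arrays left out Cxcl1 ranged from -0.10 to 0.035, Il1r1 from -0.17 to 0.33 and Ccl2 from -0.17 to 0.22. The causes of these shifts were not tested, except that 1 probe set per gene tests fewer features.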

Other observations

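Further genes of myeloid cells, epithelial junctions and T cell cytokines rose outside the lists. They were picked because they rose, so no count over them is given as support. Among 13 such genes of granulocytes and monocytes, Mefv, the gene of pyrin, rose by 3.69 (adjusted p 0.000157), Siglec5, a sialic acid receptor, by 3.55 (adjusted p 0.000586), Chi3l1, a chitinase-like protein, by 3.39 (adjusted p 7.83e-05) and G0s2, a lipase inhibitor, by 3.13 (adjusted p 0.000537) in SCC fibroblasts. The gap junction genes Gjb2 and Gjb6 rose by 4.17 and 4.12, and Lamb3 and Lama3, chains of laminin-332, by 2.90 and 2.66. Il17f, a cytokine of T cells, rose by 3.39 (adjusted p 0.0119) and the transcription factor gene Batf by 3.61 (adjusted p 0.00882), beside Il23a.

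Of 21 imprinted genes, listed after Meg3 was seen among the largest falls, 6 fell and 0 rose (median -0.79), where 5.96% of all genes fell. Meg3 and Plagl1 were themselves among the largest falls, so this count is partly set by the choice and is not given as support. The genes that fell were Meg3 (-2.99), Plagl1 (-2.16), Ndn (-1.58), Cdkn1c (-1.53), Grb10 (-1.46) and Igf2r (-0.79). Of these, 2 were lower after spike-in alignment, and none held with each array left out.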
